A study of Lactuca sativa with 24 samples.

Results

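The photosynthesis genes carried by the chloroplast genome of lettuce (Lactuca sativa) were followed through leaf RNA sequencing of the varieties Luna bionda and Falstaff. They were the plastid genes with a symbol beginning psa, psb, pet, atp or ndh, and rbcL. This gave 45 gene identifiers, with 44 symbols, of 31499 genes in the tables and of 77 protein-coding plastid genes there. Photosystem II had 15 members, photosystem I had 5, the cytochrome b6f complex had 6, the ATP synthase had 6, the NADH dehydrogenase-like (NDH) complex had 12 identifiers with 11 symbols, and Rubisco had 1. The gene ndhB was listed at both of its copies in the inverted repeat. The pairs psbD and psbC, and atpE and atpB, overlap in most plastid genomes, and psbN lies on the opposite strand of the operon around it. Whether strand was used in counting is not given in the sources used here, so the values of these 7 identifiers are uncertain.

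Wild-type baby leaves were sampled in 8 groups, each with 3 libraries. Luna bionda had received UVB (306 nm) at 0.4 W per square metre for 2.5 h per day or 7.5 h per day over 6 days, visible light alone for 6 days, or was taken at day 0. Falstaff had received UVB at the same irradiance for 2.5 h per day, UVA (365 nm) at 0.4 W per square metre for 7.5 h per day, visible light alone for 6 days, or was taken at day 0. All lamps gave the same warm and cold white light, and the labels give polyA RNA as the molecule for every library. Whether replicate libraries stem from different plants is not labelled, so p-values reflect library-to-library spread only, which may be technical. By the labels, the deposited tables do not hold the groups that the table names give; groups here follow the labels, and which is right was not settled.

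The plastid genome of a leaf encodes the core proteins of the machinery that turns light into chemical energy, while the nucleus encodes the remaining subunits. Photosystem II splits water, the cytochrome b6f complex passes electrons on to photosystem I, the ATP synthase uses the resulting proton gradient, and the NDH complex returns electrons from photosystem I to the plastoquinone pool. Rubisco fixes carbon dioxide, and its large subunit is the plastid gene rbcL. Plastid genes are read in long clusters, and most plastid messengers carry no stable poly(A) tail.

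The libraries were of 2 kinds, which were kept apart throughout. In the 6 shallow libraries between 464282 and 1036697 reads fell in genes, against 12072410 to 43276819 reads in the 18 deep libraries. The shallow ones were replicate 1 of Luna bionda with UVB for 7.5 h and, in Falstaff, replicate 1 of UVB, replicates 1 and 3 of UVA, replicate 2 of visible light at day 6 and replicate 1 of day 0. The numbers in the batch labels formed a lower and an upper series, and all 6 shallow but only 4 deep libraries carried a number of the lower one. Levels are given as CPM, the reads of a gene scaled to a common number of reads in genes. They are not divided by gene length, so they compare a gene between libraries and not one gene with another. In bulk leaf RNA, fewer chloroplast-rich cells and less plastid RNA per cell cannot be told apart.

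In the shallow libraries the 45 genes held 3.40% to 9.04% of all reads (median 6.32%, n = 6). In the deep libraries they held 0.000423% to 0.00669% (median 0.00136%, n = 18). Although the deep libraries held 516253640 reads in total and the shallow ones 4713646, the members had only 9749 reads in the deep libraries, against 310297 in the shallow ones. Of the 45 identifiers, 44 had a read in some shallow library, all but psbF, a subunit of cytochrome b559. In the deep libraries 19 had a read, 14 had at least 10 reads in all, and 26 had none. For these 26, the limit that a count of 0 allows over all deep reads is 0.0058 CPM (3 reads, counting error only). The gap was no feature of one light condition. In each of the 5 conditions that had both kinds of library, the shallow libraries were far above the deep ones. Pooled over libraries, the 45 genes summed to 49203 CPM in the shallow and 16.9 CPM in the deep Luna bionda libraries of UVB for 7.5 h, a 2916-fold difference. In Falstaff the sums were 90444 and 18 CPM with UVB, 57675 and 23.1 CPM with UVA, 51049 and 23.3 CPM in visible light at day 6, and 75350 and 9.85 CPM at day 0. The corresponding shallow to deep ratios were 5026, 2492, 2190 and 7648. No test was made between the kinds, since they are not groups of the study.

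**Figure D1:**
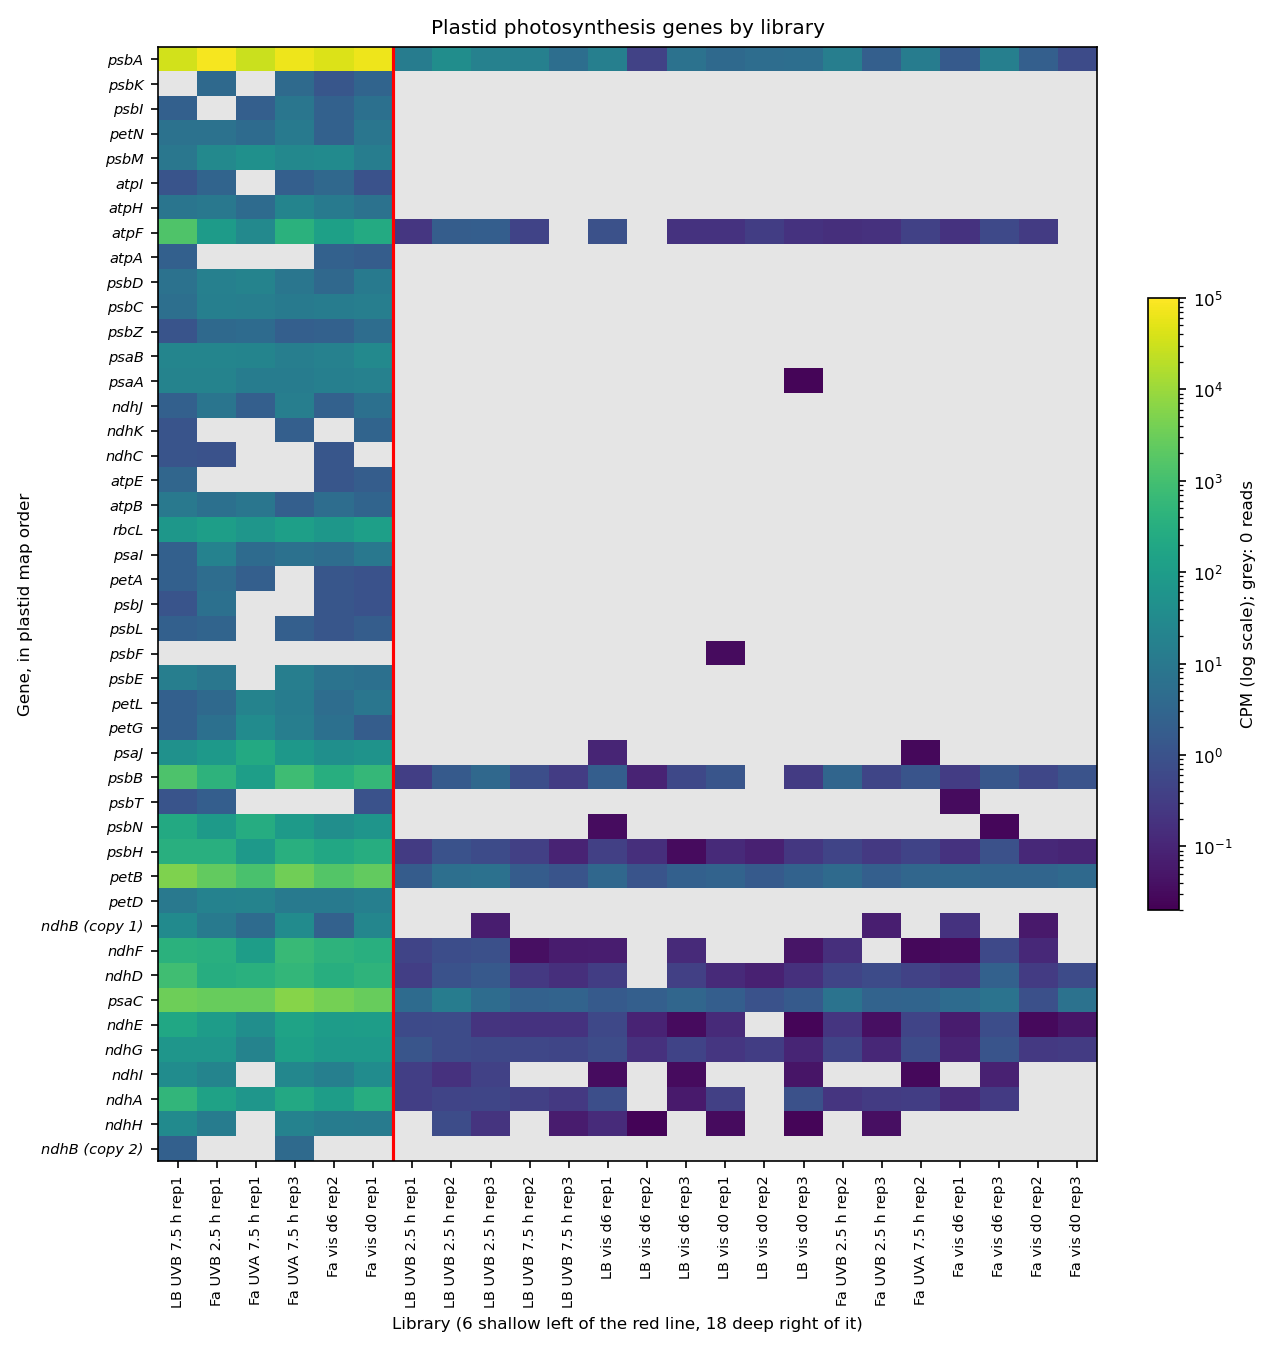
Each row is one of the 45 genes in plastid map order and each column a library, with Luna bionda as LB, Falstaff as Fa, visible light as vis and days as d0 or d6. Colour is CPM on a log scale and grey is 0 reads. Left of the red line, in the 6 shallow libraries, most rows are filled, whereas in the 18 deep libraries 26 rows are empty.

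Photosystem II contributed the most reads. Its psbA gene (LasaCp001) encodes D1, the reaction-centre protein that light damages and that is replaced fastest. In the shallow libraries psbA stood at 34990 CPM in Luna bionda under UVB for 7.5 h. The Falstaff values were 82829 CPM with UVB, 28431 and 67662 CPM with UVA, 43447 CPM in visible light at day 6 and 67110 CPM at day 0. The UVA pair thus enclosed 2 of the other 3 Falstaff values, and conditions could not be ordered by psbA. In the deep libraries psbA ranged from 0.416 CPM (Luna bionda in visible light at day 6, replicate 2) to 39.1 CPM (Luna bionda with UVB for 2.5 h, replicate 2), with a median of 5.92 CPM. The gene psbB (LasaCp048), for the inner antenna protein CP47, had 1324 CPM in the Luna bionda shallow library. In the Falstaff shallow libraries it had 432 CPM with UVB, 116 and 820 CPM with UVA, 309 CPM in visible light at day 6 and 595 CPM at day 0, and in the deep libraries 0 to 3.59 CPM (median 0.697). The UVA pair lay 7.05-fold apart and enclosed all other Falstaff values. Summed over its 15 genes, photosystem II had a median of 56100 CPM in the shallow and 6.42 CPM in the deep libraries.

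The other photosystem II genes divided sharply. The gene psbH, for a small phosphoprotein of the core, had 79.7 to 346 CPM in the shallow libraries and was seen in all 18 deep libraries at 0.0310 to 0.971 CPM. The gene psbN, for a factor in photosystem assembly, had 39.8 to 282 CPM in the shallow libraries but 2 reads in all deep libraries. The genes psbD and psbC, for the D2 protein and the antenna protein CP43, had 51 and 59 shallow reads and no deep read. The small subunit gene psbM had 112 shallow reads and none in the deep libraries, at least 4089-fold higher in the shallow libraries when set against 3 reads over all deep libraries.

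Photosystem I was represented above all by psaC (LasaCp073), which encodes the iron-sulphur protein that hands electrons to ferredoxin. It had 3299 CPM in the Luna bionda shallow library. In the Falstaff shallow libraries it had 2796 CPM with UVB, 2772 and 5994 CPM with UVA, 4006 CPM in visible light at day 6 and 2815 CPM at day 0. The lowest and the highest value were both UVA libraries. In the deep libraries psaC was seen in all 18, at 0.876 to 13.3 CPM (median 2.85). The small subunit gene psaJ (LasaCp041) had 50.1 CPM in the Luna bionda library. Its Falstaff values were 76.9 CPM with UVB, 239 and 76.4 CPM with UVA, 44.6 CPM in visible light at day 6 and 55.0 CPM at day 0. UVA replicate 1 stood apart for psaJ, and it was also the highest library for psbN, psbM, petG and petL. The deep libraries held 4 psaJ reads. The genes psaA and psaB, for the large reaction-centre proteins, had 81 and 105 shallow reads, against 1 and 0 deep reads.

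In the cytochrome b6f complex nearly all reads came from petB (LasaCp052), for cytochrome b6. It had 5212 CPM in the Luna bionda shallow library. In the Falstaff shallow libraries it had 2464 CPM with UVB, 1187 and 3497 CPM with UVA, 1588 CPM in visible light at day 6 and 2491 CPM at day 0. Again the UVA pair enclosed every other Falstaff value. Among the deep libraries petB was seen in all 18 and within the narrow range of 1.09 to 6.36 CPM (median 2.83). Its neighbour petD (LasaCp053), for subunit IV, had 10.0 CPM in the Luna bionda shallow library, 18.7 CPM in Falstaff with UVB, 19.4 and 10.6 CPM with UVA, 10.8 CPM in visible light at day 6 and 15.4 CPM at day 0. No deep library held a petD read, so that it was at least 2446-fold higher in the shallow libraries. The gene petA, for cytochrome f, had 10 shallow reads.

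Of the ATP synthase genes, only atpF (LasaCp014), for a peripheral stalk subunit, had reads in the deep libraries. In the shallow libraries it had 1404 CPM in Luna bionda under UVB for 7.5 h. The Falstaff values were 97.7 CPM with UVB, 28.0 and 374 CPM with UVA, 127 CPM in visible light at day 6 and 251 CPM at day 0. The Luna bionda value was 3.76 times the highest Falstaff value, while the 2 UVA libraries themselves lay 13.3-fold apart. In the deep libraries atpF had 0 to 2.0 CPM (median 0.215) and reads in 15 of 18. The gene atpH (LasaCp013), for the membrane ring subunit, had 7.79 CPM in the Luna bionda library, 9.86 CPM in Falstaff with UVB, 4.31 and 21.2 CPM with UVA, 10.8 CPM in visible light at day 6 and 6.75 CPM at day 0. The genes atpA and atpB, for the catalytic head, had 6 and 27 shallow reads and no deep read.

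The NDH complex differed from the others in how many members the deep libraries held. Its genes ndhD (LasaCp072) and ndhF (LasaCp069), encode proton-pumping membrane subunits. In the Luna bionda shallow library ndhD had 876 CPM, and in the Falstaff ones 295 CPM with UVB, 358 and 556 CPM with UVA, 311 CPM in visible light at day 6 and 464 CPM at day 0. For ndhF the values were 379 CPM in Luna bionda, and in Falstaff 331 CPM with UVB, 106 and 667 CPM with UVA, 429 CPM in visible light at day 6 and 332 CPM at day 0. In the deep libraries ndhD had 0 to 2.47 CPM (median 0.345) and ndhF 0 to 0.880 CPM (median 0.0563). The gene ndhG was seen in all 18 deep libraries at 0.0950 to 1.17 CPM, and it had the smallest shallow to deep ratio of the 14 members with at least 10 deep reads, 165.9. For psbA the ratio was the largest of these 14, at 6360, and their median was 836.

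Rubisco's rbcL (LasaCp029) had 71.3 CPM in the Luna bionda shallow library, and in the Falstaff ones 110 CPM with UVB, 64.6 and 123 CPM with UVA, 71.1 CPM in visible light at day 6 and 124 CPM at day 0. These 6 values lay within a factor of 2 of each other, closer together than those of psbA. Not one of the 18 deep libraries held an rbcL read. Set against 3 reads over all deep libraries, rbcL was at least 16502-fold higher in the shallow libraries.

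**Figure D2:**
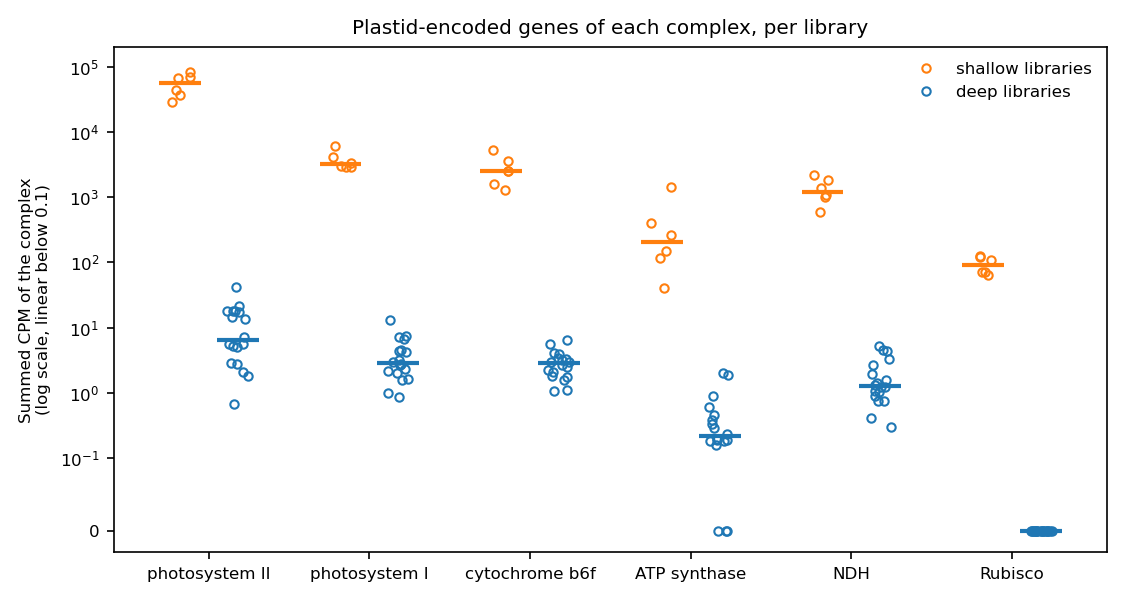
Summed CPM of the plastid genes of each complex, on an axis that is logarithmic above 0.1 and linear below it. Each circle is a library, orange for the 6 shallow and blue for the 18 deep, and each bar is the median. The shallow libraries lie above all deep libraries for every complex, and all deep libraries are at 0 for Rubisco.

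The make-up of the plastid reads differed between the kinds as well as their amount. In the shallow libraries psbA took 71.1% to 91.6% of the members' reads (median 84.3%), against 5.02% to 70.2% (median 46.4%) in the deep libraries. The shallow libraries were mostly Falstaff and the deep ones mostly Luna bionda. In Luna bionda under UVB for 7.5 h the psbA share was 71.1% in the shallow library, and 70.2% and 49.0% in the deep ones. In Falstaff the lowest shallow share was 83.5% and the highest deep share 56.5%. The share of psaC was 3.09% to 8.15% in the shallow and 5.88% to 51.4% in the deep libraries, and that of petB was 2.72% to 10.6% and 7.24% to 38.9%. These are shares of a total, so a lower psbA share raises the others. Across the 45 members, pooled CPM in the shallow and in the deep libraries had a Spearman rho of 0.749, with 26 members tied at 0 in the deep libraries. Among these 26 was rbcL, with 452 shallow reads. Over the 14 members with at least 10 deep reads, a set chosen by those reads, the rho was 0.903. Genes share the libraries and differ in length and in base composition, so these coefficients are descriptions.

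**Figure D3:**
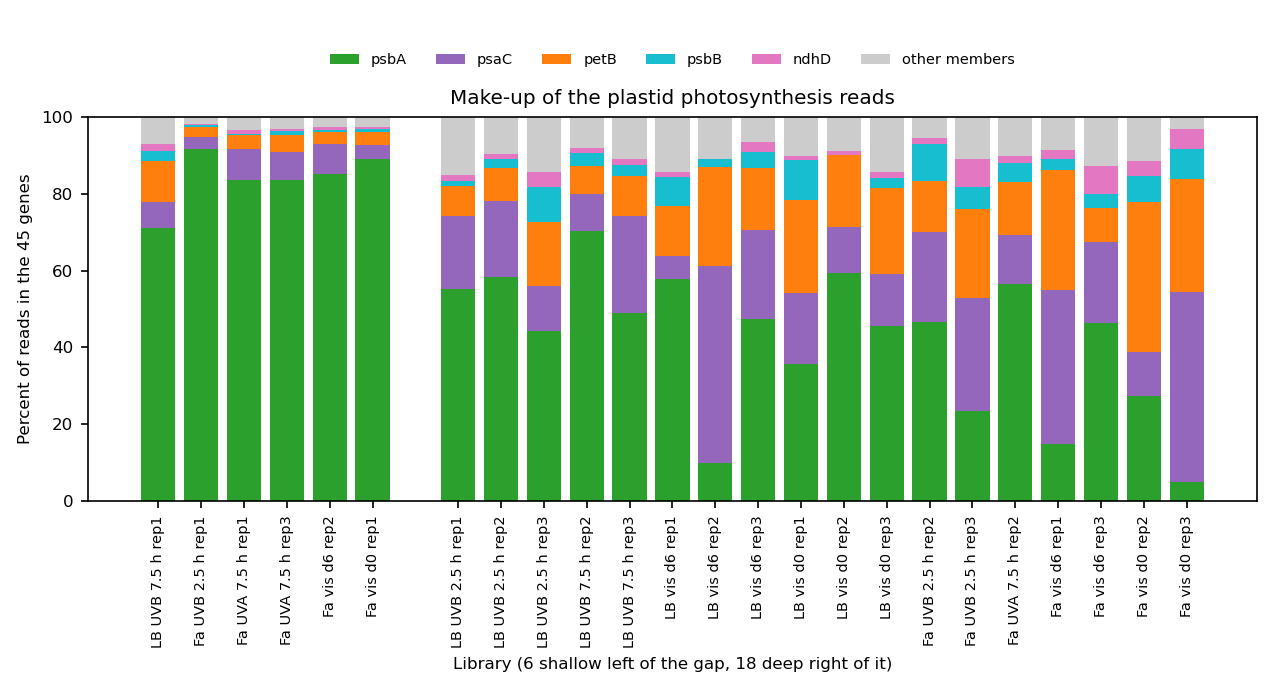
Stacked bars give the percent of each library's reads in the 45 genes that fell in psbA, psaC, petB, psbB, ndhD and the other members, with the 6 shallow libraries left of the gap and the 18 deep ones right of it. The psbA share exceeds 71% in every shallow library and runs from 5.02% to 70.2% among the deep ones.

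Many of the members that the deep libraries held lie together on the plastid map. In the gene order of the RefSeq assembly Lsat_Salinas_v11, 8 members follow each other from ndhF to ndhH in the small single-copy region, namely ndhF, ndhD, psaC, ndhE, ndhG, ndhI, ndhA and ndhH. All 8 had at least 10 reads in the deep libraries, against 6 of the other 37 members (psbA, atpF, psbB, psbH, petB and one ndhB copy). The cluster of psbB, psbT, psbN, psbH, petB and petD was unevenly represented in the deep libraries. There psbB had 507 reads, psbH 166 and petB 1471, whereas psbT had 1, psbN 2 and petD 0. The run and the cluster were looked at after the values were seen.

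Other organelle genes moved with the kind of library too. The 24 plastid genes for transcription and translation had a median summed level of 11317 CPM in the shallow and 2.62 CPM in the deep libraries, and 9 of them had any deep read. The 8 other plastid protein genes had 1870 and 3.77 CPM, and 20 mitochondrial respiratory genes 11565 and 15.1 CPM. Of the mitochondrial genes 17 had a deep read. Nuclear photosynthesis genes could not be listed, because the identifiers carry no product names, and are not used here.

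Among the shallow libraries light could not be compared, since each condition had a single library except UVA, with a pair. Of the 21 members with at least 60 shallow reads, 9 had all 3 other Falstaff values inside the range of the UVA pair. The Luna bionda library was the highest of the 6 for 8 of these 21 members and the lowest for 2. Variety, light and library cannot be told apart in that count. The shares over all genes were not computed for these counts, so whether they are unusual for these members is not known.

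Effects of light and variety were tested in the 18 deep libraries, where 13 members passed the filter of a mean of at least 1 normalized read, a normalized read being a read scaled by the library's median-of-ratios factor. The better-read copy of ndhB, with 12 deep reads, did not. All 27016 genes that passed were fitted together with limma on log2(normalized reads + 1), and fold changes on this scale understate changes of low genes. No member passed a Benjamini-Hochberg adjusted p of 0.05 in any of 8 comparisons. Among the comparisons of 2 groups, the members' median difference was largest between Luna bionda leaves under UVB for 2.5 h per day and those in visible light at day 6.

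In that comparison psbA had 388, 1714 and 555 normalized reads in the UVB libraries, against 313, 10.3 and 182 in the visible-light libraries. The groups did not overlap, but UVB replicate 1 was close to visible-light replicate 1. The difference was 3.05 ± 1.16 (log2 fold change ± SE), with a limma adjusted p of 0.185, and on omission of 1 library it ranged from 1.58 (without visible-light replicate 2) to 3.98 (without visible-light replicate 1). For psaC the UVB libraries had 132, 583 and 150 normalized reads, against 31.9, 53.6 and 88.1 in visible light, a difference of 2.06 ± 0.79 with a limma adjusted p of 0.188. These groups did not overlap either. For petB the values were 54.6, 248 and 207 with UVB and 70.7, 26.8 and 62.2 in visible light, so that UVB replicate 1 fell within the visible-light range. Its difference was 1.5 ± 0.60, with a limma adjusted p of 0.201.

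The smallest adjusted p values belonged to NDH genes with few reads. The gene ndhI, for an iron-sulphur subunit, had 10.6, 7.98 and 13.2 normalized reads with UVB, against 0.694, 0 and 0.863 in visible light. Its difference was 2.96 ± 0.64, with a limma adjusted p of 0.125. The gene ndhI passed the filter through these UVB libraries, so its p-value is a description and no independent test. For ndhF the values were 14.1, 34.6 and 28.6 with UVB and 1.39, 0 and 3.45 in visible light, a difference of 3.52 ± 0.95 with a limma adjusted p of 0.133. Neither gene's groups overlapped. The subunit gene ndhD had 10.6, 42.6 and 48.4 normalized reads with UVB and 6.94, 0 and 10.4 in visible light, so that UVB replicate 1 was just above the highest visible-light library. Its difference was 2.70 ± 1.01. The difference of psbB was 1.79 ± 1.32 and that of atpF 2.83 ± 1.27, and in both genes the groups overlapped.

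In this comparison all 13 members had a positive difference, as did 46.1% of all genes, with a median of 2.18 for the members and -0.04 for all genes. At an unadjusted p of 0.05, 8 of the 13 members were past the threshold, against 19.3% of all genes. Without UVB replicate 2 it was 2 of 12 tested members, against 8.72% of all genes. Without visible-light replicate 2 it was 4 of 13, against 13.1% of all genes. Both of these omissions left 0 members past the adjusted threshold, unlike that of UVB replicate 1, which is described below. With all 18 deep libraries, 0 of 13 members and 0% of all genes were past the adjusted threshold. In 7 of the 13 all UVB libraries were above all visible-light libraries (psbA, psbH, ndhF, ndhD, psaC, ndhG and ndhI), against 7.95% of all genes. On the CPM scale these were 3 of 13 (ndhF, psaC and ndhI), against 2.94%. Most of the summed signal of ndhI and ndhH lay in these 3 UVB libraries, so that their passing the filter was not independent of this group, and members share libraries and clusters, so the counts are descriptions. Scaling to total reads moved the median of all genes to -0.53 and that of the members to 1.72, with all 13 still positive and 6 past an unadjusted p of 0.05, against 25.4% of all genes. The quasi-likelihood test of edgeR called 0 members and 0% of all genes. At an unadjusted p under 0.05 it had 6 of 13 members, against 17.9% of all genes. DESeq2 called 2 members, petB (adjusted p = 0.0464) and psaC (adjusted p = 0.0326), and 8.72% of all genes. Over all alternatives the adjusted p ranged from 0.0179 to 1 for petB and from 0.0326 to 1 for psaC.

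All 3 UVB libraries carried a batch number of the lower series and all 3 visible-light libraries one of the upper, so light and number series cannot be told apart within the comparison. Without UVB replicate 1, limma called 5 members (psbH, petB, ndhF, ndhI and ndhH) and 15% of all genes. Of these, ndhI and ndhH had passed the filter largely through the UVB libraries. Size factors differed from total reads the most in UVB replicate 2 (a ratio of 0.614) and in visible-light replicate 1 (1.31). The members' summed CPM was 23.4, 66.9 and 38.7 with UVB, against 26.4, 4.23 and 13.8 in visible light. These sums overlapped, with UVB replicate 1 below visible-light replicate 1. The other plastid protein genes summed to 4.23, 7.58 and 5.99 CPM with UVB, against 3.30, 1.43 and 4.65 CPM, and also overlapped. Mitochondrial respiratory genes summed to 13.9, 25.2 and 17.7 CPM with UVB, against 13.2, 23.6 and 23.6 CPM in visible light, and so overlapped. Plastid transcription and translation genes summed to 2.70, 2.55 and 3.76 CPM with UVB, against 1.42, 1.22 and 3.97 CPM, and overlapped as well. The part of the size factors and of single libraries in the difference was not tested.

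**Figure D4:**
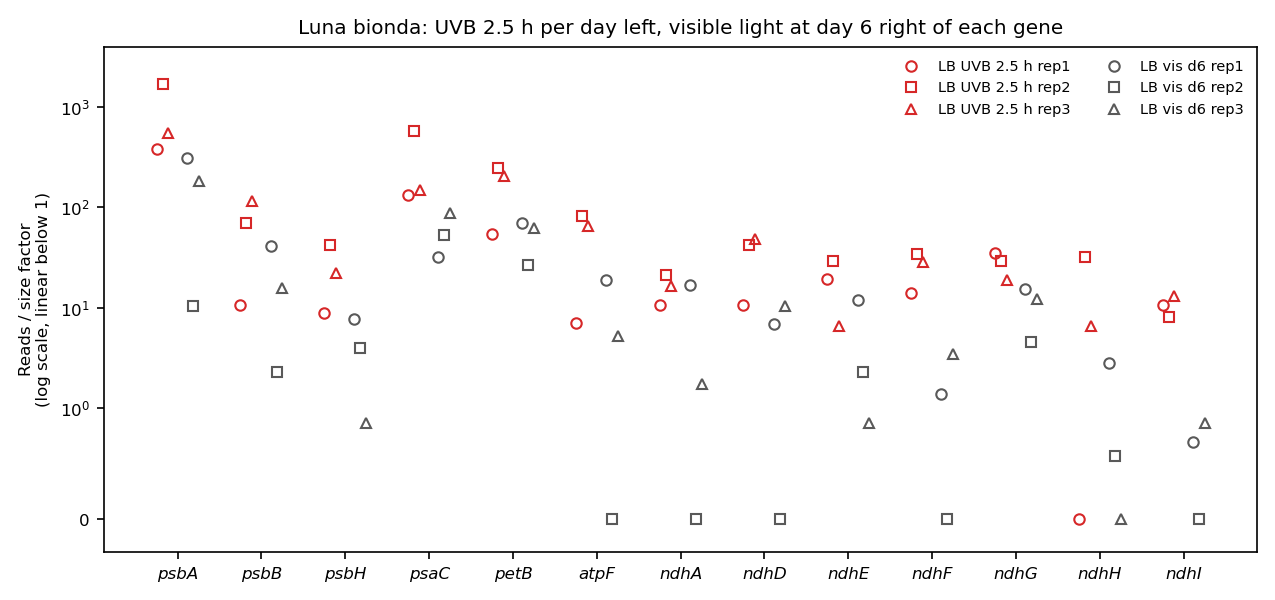
Normalized reads (reads divided by size factor; axis logarithmic above 1, linear below) of the 13 tested genes in Luna bionda, with the 3 UVB 2.5 h libraries in red left of the 3 visible-light day 6 libraries in grey. Symbols mark replicates 1 to 3. In ndhF and ndhI all UVB values lie clearly above all visible-light values, while in psbB, petB and atpF they overlap.

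In Falstaff under UVB for 2.5 h per day, psbA had 341 and 47.6 normalized reads in the UVB libraries, against 39.5 and 425 in visible light at day 6. The libraries within each group lay further apart than the group means. The difference of psbA was -0.03 ± 1.42, with a limma adjusted p of 1, and was 0.15 when scaled to total reads. Of the 13 members, 3 had a positive difference (4 when scaled to total reads), against 47.8% of all genes, and the members' median was -0.51. This direction rested on single libraries. Without visible-light replicate 3, 9 were positive with a median of 0.43, and without UVB replicate 3, 7 were positive with a median of 0.03. At an unadjusted p of 0.05 the figures were 0 of 13 members and 4.7% of all genes, and at the adjusted threshold 0 and 0%. Neither edgeR nor DESeq2 called any of the 13 members, against 0.0714% of all genes with DESeq2.

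The response to UVB in Luna bionda minus that in Falstaff was tested as an interaction, which was added after the data had been seen. All 13 members had a positive interaction, against 47.6% of all genes, with a median of 2.72 for the members and -0.07 for all genes. It was 4.85 ± 1.5 for ndhF (limma adjusted p = 0.163), 3.79 ± 1.02 for ndhI (limma adjusted p = 0.137) and 3.08 ± 1.83 for psbA (limma adjusted p = 0.414). These 2 NDH genes were past an unadjusted p of 0.05, 2 of 13 against 16.8% of all genes. Of these, ndhI passed the filter through the Luna bionda UVB libraries, so its interaction is a description. Without Falstaff UVB replicate 3, 12 interactions were positive and 1 negative, with a median of 2.13. Without Falstaff visible-light day 6 replicate 3 all 13 were positive, with a median of 1.64. Among the libraries of this interaction, only the Luna bionda UVB ones carried a batch number of the lower series. Interaction and number series therefore cannot be told apart within these libraries. None of the 13 and 0% of all genes passed the adjusted threshold. A difference between the varieties in the response of these genes to UVB was therefore not shown, and Falstaff had 2 deep libraries per group here.

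Under UVB for 7.5 h per day, Luna bionda had 2 deep libraries. For psbA they had 499 and 152 normalized reads, against 313, 10.3 and 182 in visible light. The groups overlapped, and the difference was 1.67 ± 1.30 with a limma adjusted p of 1. Of the 13 members 9 had a positive difference, against 51% of all genes, with a members' median of 0.46 that was 0.20 when scaled to total reads. Without visible-light replicate 2, 6 were positive and 7 negative, with a median of -0.21. Neither an unadjusted p under 0.05 (0 of 13 members, 3.8% of all genes) nor the adjusted threshold (0 and 0%) was reached. The comparisons with UVB for 2.5 h and for 7.5 h shared the 3 visible-light libraries, and the 2 UVB doses were not tested against each other.

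For Falstaff under UVA there was 1 deep library, so its spread was assumed to be that of the other groups. For psbA it had 343 normalized reads, against 39.5 and 425 in visible light at day 6, that is, between them. The difference was 1.39 ± 1.74, with a limma adjusted p of 1. Of the 13 members 8 had a positive and 4 a negative difference, against 51.7% of all genes positive. Without visible-light replicate 1, 2 were positive and 10 negative. Again 0 of 13 members were past an unadjusted p of 0.05, against 1.97% of all genes, and 0 and 0% were past the adjusted one. DESeq2 called 0 members and 0.026% of all genes.

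Over 6 days in visible light in Luna bionda, no shift of the 13 tested genes was detected beyond the spread between libraries. Their SEs ran from 0.60 (petB) to 1.32 (psbB), so sizeable changes could have been missed. For psbA the day 6 libraries had 313, 10.3 and 182 normalized reads, against 111, 138 and 127 at day 0. The day 0 libraries lay close together and inside the day 6 range. The difference was -0.54 ± 1.16 (limma adjusted p = 1), and 8 of 13 members were positive, against 48.8% of all genes. On omission of 1 library of these groups between 5 (without day 0 replicate 2) and 12 (without day 6 replicate 2) were positive. Only day 0 replicate 2 of these libraries carried a batch number of the lower series. No member and 2.89% of all genes had an unadjusted p under 0.05, and 0 and 0% passed the adjusted threshold. In Falstaff psbA had 39.5 and 425 normalized reads at day 6, against 44.8 and 19.4 at day 0. The difference was 2.11 ± 1.42 (limma adjusted p = 1), with day 6 replicate 3 alone above both day 0 libraries, and on omission of 1 library it ranged from 0.40 to 3.80. Of the 13 members 10 were positive and 2 negative, against 52.6% of all genes positive, and the members' median was 1.25. Without day 6 replicate 3, 6 were positive and 5 negative with a median of 0, and without day 6 replicate 1 the median was 2.48. No member and 4.42% of all genes had an unadjusted p under 0.05 with limma, and 0 and 0% passed the adjusted threshold. DESeq2 called 0 members and 0.142% of all genes.

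Between the varieties, averaged over day 0, visible light at day 6 and UVB for 2.5 h, 8.55% of all genes passed the adjusted threshold and 0 of the 13 members did. The difference of Luna bionda minus Falstaff was largest of the 13 in psbA, at 1.31 ± 0.75 (limma adjusted p = 0.370). For ndhI it was 1.2 ± 0.42 (limma adjusted p = 0.101). It was the 1 member of 13 with an unadjusted p under 0.05, against 19.8% of all genes, but it passed the filter through the Luna bionda UVB libraries, which this difference includes. Of the members 9 were positive (8 when scaled to total reads), against 48.2% of all genes. All 4 deep libraries of the lower number series were Luna bionda ones, so variety and number series cannot be fully told apart. With a term for the series, 12 of 13 members and 13800 of 27016 genes were positive. In that fit 0 members and 1299 genes passed the adjusted threshold. Among the deep libraries only Luna bionda day 0 held both series, so the term rests on its replicate 2 against replicates 1 and 3. This fit therefore cannot separate variety from number series. The quasi-likelihood test of edgeR called 0 members and 7.89% of all genes, and DESeq2 called 0 members and 11.4%.

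**Figure D5:**
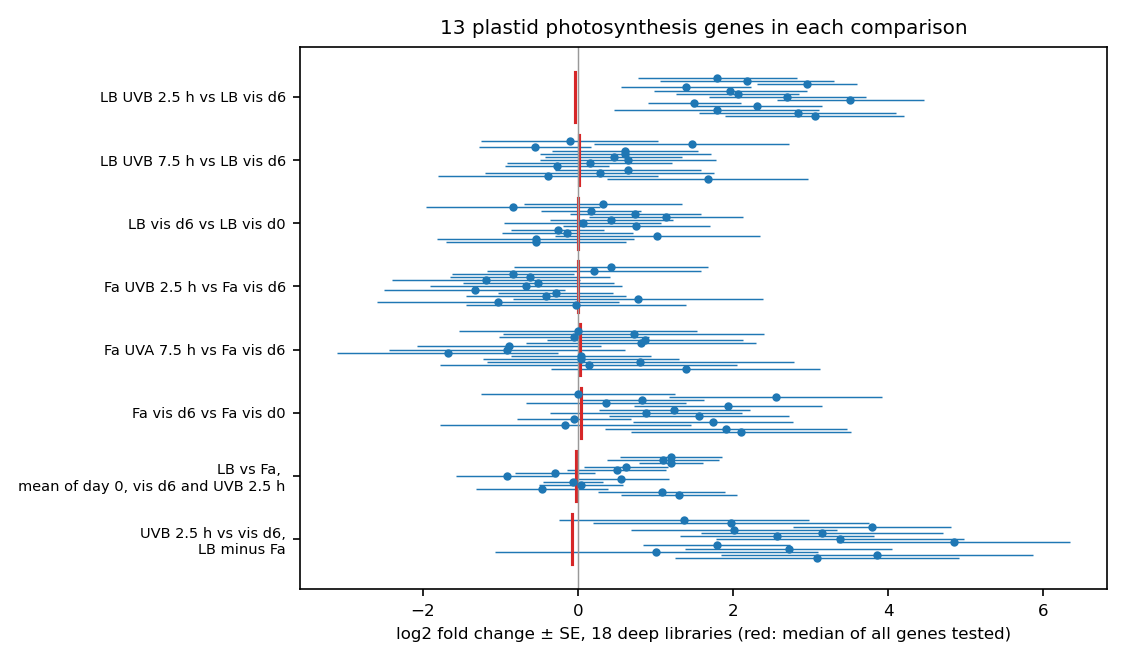
The log2 fold change with its SE of each of the 13 tested genes, in 8 comparisons among the 18 deep libraries, with the first-named group over the second and Luna bionda minus Falstaff in the last row. Red marks are the medians of all genes tested. All 13 points are above 0 for UVB 2.5 h in Luna bionda and for the interaction, and no point in any row passed an adjusted p of 0.05.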

How the data were processed

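Leaf RNA from 24 libraries was sequenced after cDNA amplification and Nextera XT preparation, per the labels' protocols. Reads were aligned with STAR and counted with featureCounts 1.6.3, per the submitters' processing notes. Not given in the sources used here are the STAR version, the genome build, the annotation, the strand setting and how multi-mapping reads were handled. Gene tables of normalized signal, 7 in all, were deposited, each value being a read count divided by a factor of the library. Whole reads were recovered for 100% of the values at a relative tolerance of 0.001 and joined into 31499 genes, of which 31073 matched RefSeq (Lsat_Salinas_v11, used for names and gene order only). The 18 columns that repeated a library were used once. The authors' fold changes were not used.

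CPM was computed from reads and the library's total reads in genes. Limits from counts of 0 cover counting error only, since amplified reads are not independent molecules. The fit used limma 3.58.1 (R 4.3.3, trend on mean level) on log2(reads / median-of-ratios size factor + 1), over the 18 deep libraries with 1 mean per group, without a replicate block. The unit is a signal, so limma was the main test; edgeR 4.0.16 and DESeq2 1.42.0 were run on the recovered reads as alternatives. Genes with a mean of at least 1 were tested, and p-values were adjusted over all of them by the Benjamini-Hochberg method at 0.05. The fit was also run on simulated data with planted changes. The outcome is not given here, so the absence of called members is no measure of power. Other alternatives were TMM scaling, pseudocounts of 0.5 and 5, a filter of 10 or none, all 24 libraries with or without a term for shallow or deep, a term for the batch number series, a replicate block and omission of each library. The batch number series term rests on the Luna bionda day 0 group, the only one whose deep libraries held both series. Scaling to total reads and the interaction were added after seeing the data.

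The genes, lists and tests were chosen with earlier results of these data known. Values per library are given for psbA, rbcL and the 2 members of each complex with the highest mean CPM over the shallow libraries. Other members are given by range and count, and the ones named beyond this rule were chosen after their values were seen.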

Additional observations from a re-analysis of the deposited data

How the results depend on the processing

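No member passed the adjusted threshold in any comparison under TMM scaling, the pseudocounts, the stricter filter, edgeR, all 24 libraries, the batch number series term or scaling to total reads. The exceptions were DESeq2 (2 members for UVB 2.5 h in Luna bionda), omission of a library (0 to 5 members there, 5 without UVB replicate 1) and no filter (1 member, ndhI, between varieties, adjusted p = 0.0233). For UVB 2.5 h in Luna bionda, all 383 differences of the 13 members of the main fit were above 0 under the other settings. These settings reuse the same libraries, so they are no added support. With further members let in, 14 of 19 were positive and 2 negative with no filter. With all 24 libraries 14 of 44 were positive and 2 negative. Counts over all genes moved more. For UVB 2.5 h in Luna bionda they were 3 with no filter, 1986 with DESeq2, 6 with the batch number series term and 0 to 4063 on omitting a library. For UVB 7.5 h the count was 4 with no filter. For Falstaff UVB it was 49 with no filter, 17 with DESeq2 and 0 to 1 on omission. For UVA it was 1 with a pseudocount of 5, 179 with no filter and 7 with DESeq2, and for Falstaff day 6 against day 0 it was 24 with no filter and 30 with DESeq2. Between varieties it was 1032 with all 24 libraries, 1267 with a term for shallow or deep and 1299 with the batch number series term. For the interaction it was 17 with no filter, 1685 with DESeq2, 2 with the batch number series term and 0 to 2575 on omission (2575 without Luna bionda UVB replicate 1, 80 without Falstaff visible-light day 6 replicate 3). The cause was not tested.

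Signs turned in uncalled genes. The psbA difference of Luna bionda day 6 against day 0 was 0.45 with edgeR, 0.43 with DESeq2, and -1.47 to 0.93 on omission (0.93 without day 6 replicate 2). For Falstaff UVB it was 0.27 with all 24 libraries, with or without the term, 0.15 scaled to total reads, and -1.72 to 1.67 on omission (1.38 without UVB replicate 3, 1.67 without visible-light replicate 3). For UVA it was -0.31 to 3.09 on omission (-0.31 without visible-light replicate 1). Between varieties, with all 24 libraries, it was -3.65 for psbA and -1.97 for ndhI.

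Deviations of same-numbered libraries from their group means were weakly correlated (-0.135 to 0.155). The labels do not say whether the numbers pair libraries, and groups of so few libraries cannot settle it. The replicate block called 0 members in every comparison and 2030 genes between varieties, against 2311 without it. The UVA comparison could not be fitted without its single deep library. With 7 to 15 members seen per deep library, changes in the other members were not detectable at this depth.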

Other observations

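Even read numbers were frequent. Among nuclear protein-coding genes with 1 to 100 reads, 84.0% of the values in the shallow and 84.9% in the deep libraries were even, with 79.4% to 91.3% in single libraries. Among the 45 plastid genes, 86 of 179 such values (48.0%) were even in the shallow libraries and 112 of 182 (61.5%) in the deep ones. The difference was not tested.

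Few plastid genes outside photosynthesis were well read in the deep libraries. Of the 24 genes for transcription and translation 6 had at least 10 deep reads, as did 2 of the 8 other protein genes, 2 of the 7 ribosomal RNA genes and 3 of the 25 transfer RNA genes. Of the 20 mitochondrial respiratory genes 16 did. Summed plastid ribosomal RNA genes had a median of 2755 CPM in the shallow and 0.230 CPM in the deep libraries, and transfer RNA genes 323 and 0.787 CPM.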
